A study of Mus musculus with 32 samples.

Results

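Neutrophil alarmins and inflammatory cytokines were followed through muscle injury in 8 genes: Csf3r, S100a8, S100a9, Lcn2, Mmp8, Il1b, Il6 and Tnf. They were chosen by gene symbol, and all 8 were present among the 54532 genes of the deposited count table. All 8 passed the filter on low counts that left 17121 genes for testing, but only Csf3r had counts in every one of the 32 libraries. RNA came from the tibialis anterior, a fast-twitch shin muscle, of C57BL/6J mice. Each of 8 groups had 4 libraries. Young mice given vehicle were sampled uninjured and at day 7 and day 35 after muscle damage with barium chloride, a salt that kills muscle fibres. Old mice given vehicle were sampled in the same 3 states. The column names of both uninjured groups carry PBS, and their sample titles say without injury. Old mice given BI01, named as a senolytic by the series, were sampled at day 7 and day 35 after injury, with no uninjured group. The labels give age as young or old only, and they do not state when BI01 was given.

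Neutrophils are the first blood cells to enter damaged muscle and are followed by monocytes and macrophages. S100a8 and S100a9 encode the paired subunits of calprotectin, a calcium-binding alarmin that neutrophils carry in bulk and that signals through Tlr4 and Ager. Csf3r encodes the receptor of G-CSF, the main growth factor of neutrophils, while Il1b, Il6 and Tnf encode cytokines that macrophages and other cells release after injury.

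Total counts per library ran from 14129350 to 30439358. The 8 genes together had 16 to 74 counts per library in young uninjured and young day 35 muscle. They had 177 to 1008 in the day 7 libraries of young, old vehicle and old BI01 muscle. Csf3r alone had 126 to 350, 292 to 544 and 358 to 920 counts per library in those day 7 groups, in that order. Levels are given in CPM, counts per 1e6 after TMM scaling of each library, and a gene was called at an edgeR adjusted p under 0.05. Column names identify the group but not the sample, so libraries are named by group and column number. The uninjured columns carry the name of the day 35 set, and time after injury at day 7 cannot be told apart from the collection set. The labels do not state that libraries came from separate animals, so the p-values measure only the spread between these samples. In bulk muscle, fewer cells of a type and less RNA per cell cannot be told apart. Muscle fibre markers such as Acta1 and Ckm summed to 201600 to 285900 CPM over the uninjured libraries and to 11190 to 147800 CPM at day 7. Old vehicle library 7 at day 7 was the lowest.

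Compared per kilobase of gene length, the order of the 8 genes differed between states. In young uninjured muscle Lcn2 had the highest mean level, 1.27 CPM per kb, followed by S100a8 at 0.162 and Csf3r at 0.140 CPM per kb. In old uninjured muscle S100a9 (2.61 CPM per kb) and S100a8 (1.78 CPM per kb) came first. At day 7 in old vehicle muscle Csf3r led with 4.64 CPM per kb, and the next gene, Il1b, had 0.702 CPM per kb. Il6 had the lowest mean level there, 0.205 CPM per kb.

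Upstream sequences are shown for the receptor gene that rose most clearly with injury, for the alarmin gene called higher in old uninjured muscle, and for the cytokine gene with the most motif matches. They end at the base before the gene start in the deposited table and come from RefSeq, build GRCm38.p6. Csf3r is on the plus strand (chr4:126024409-126024549), as is Il6 (chr5:30012864-30013113), and S100a9 is on the minus strand (chr3:90695722-90695971). Capitals mark a motif match on either strand, and all are written 5′ to 3′ in the direction of the gene.
Csf3r: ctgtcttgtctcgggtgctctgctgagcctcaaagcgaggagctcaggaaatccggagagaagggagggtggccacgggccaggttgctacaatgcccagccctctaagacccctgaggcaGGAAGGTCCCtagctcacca
S100a9: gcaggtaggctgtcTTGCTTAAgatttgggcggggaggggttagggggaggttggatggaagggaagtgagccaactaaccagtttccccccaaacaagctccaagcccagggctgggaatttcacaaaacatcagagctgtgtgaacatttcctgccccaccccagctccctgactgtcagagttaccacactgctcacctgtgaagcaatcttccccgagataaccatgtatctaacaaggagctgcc
Il6: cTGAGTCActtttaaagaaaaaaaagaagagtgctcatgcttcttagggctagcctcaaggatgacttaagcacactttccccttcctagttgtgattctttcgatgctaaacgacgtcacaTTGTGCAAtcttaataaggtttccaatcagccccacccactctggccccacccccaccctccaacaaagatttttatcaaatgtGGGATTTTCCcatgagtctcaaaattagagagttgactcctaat
The capitals are an NF-kB motif on the opposite strand in Csf3r and a C/EBP motif (TTGCNNAA) in S100a9. In Il6 they are, in order, an AP-1 motif (TGANTCA), a C/EBP motif on the opposite strand and an NF-kB motif. Windows of 250 bases before the RefSeq start were searched for all 8 genes on both strands, and no match overlapped another motif. An NF-kB match was found in 2 of the 8 and in 7.25% of 32851 windows of all genes, a C/EBP match in 4 of the 8 (S100a9, Lcn2, Il6 and Mmp8) and in 9.56% of windows. An AP-1 match was found in Il6 alone of the 8 and in 6.75% of windows, and a TATA motif (TATAAA) in S100a8, Il1b and Tnf and in 12.4% of windows. A STAT motif (TTCNNNGAA) matched in none of the 8 and in 7.02% of windows. A match is a run of letters and not a measured binding site.

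Csf3r (ENSMUSG00000028859, chromosome 4, 126024550 to 126044440, mm10) gave the clearest course of the 8 genes. In young muscle the 4 uninjured libraries had 0.464, 0.801, 0.368 and 0.386 CPM. The 4 young day 7 libraries had 11.5, 10.2, 15.7 and 7.71 CPM, and the 4 day 35 libraries had 0.387, 0.797, 0.433 and 0.392 CPM. Every day 7 library lay above every uninjured and day 35 library, and uninjured and day 35 libraries overlapped. The mean rose from 0.505 ± 0.202 to 11.3 ± 3.35 CPM (SD, n = 4), 22.1-fold (log2 fold change 4.46, SE 0.36, edgeR adjusted p = 1.13e-11). By day 35 it had fallen to 0.502 ± 0.198 CPM, a log2 difference from day 7 of -4.44 (edgeR adjusted p = 1.84e-11). Its level at day 35 differed from uninjured muscle by 0.03 on the log2 scale, with a 95% interval from -0.82 to 0.87.

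Old vehicle muscle followed the same steps of Csf3r from a higher start. The uninjured libraries had 1.91, 1.43, 0.960 and 2.71 CPM, and the day 7 libraries had 15.2, 19.9, 18.1 and 13.7 CPM. The day 35 libraries had 1.78, 2.58, 1.62 and 1.38 CPM. No day 7 library overlapped either of the other groups. Csf3r rose 9.39-fold at day 7 (log2 fold change 3.23, SE 0.30, edgeR adjusted p = 1.59e-10) and fell by day 35 (log2 fold change -3.17, edgeR adjusted p = 5.86e-10). In old muscle given BI01 the receptor gene stood at 22.4, 25.6, 17.6 and 14.4 CPM at day 7 and at 1.65, 0.672, 1.14 and 0.861 CPM at day 35, a log2 difference of -4.20 (edgeR adjusted p = 1.95e-11). In order of mean level the 3 day 7 groups came first (BI01 20.01, old vehicle 16.7, young 11.3 CPM), then old vehicle at day 35 (1.84 CPM) and uninjured (1.75 CPM), BI01 at day 35 (1.08 CPM), and the young uninjured and day 35 groups. Of the 7 pairs of neighbours in this order, 1 was separated by more than the SDs, young day 7 against old vehicle day 35.

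Csf3r was higher in old than in young muscle before injury and at day 35. Each old uninjured library lay above each young uninjured library, and the difference was 3.48-fold (log2 fold change 1.80, SE 0.38, edgeR adjusted p = 0.0018). At day 35 the old vehicle libraries again lay above all young ones, 3.56-fold (1.83, SE 0.36, edgeR adjusted p = 0.00231). With limma voom the adjusted p was 0.0789 before injury and 0.104 at day 35. At day 7 the groups overlapped and the difference of 0.57 was not called (edgeR adjusted p = 0.24). The day 7 response in old minus that in young muscle was -1.23 on the log2 scale (95% interval -2.14 to -0.33), which was not called (edgeR adjusted p = 0.0928). Without young uninjured library 2 the adjusted p was 0.0476.

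**Figure D1:**
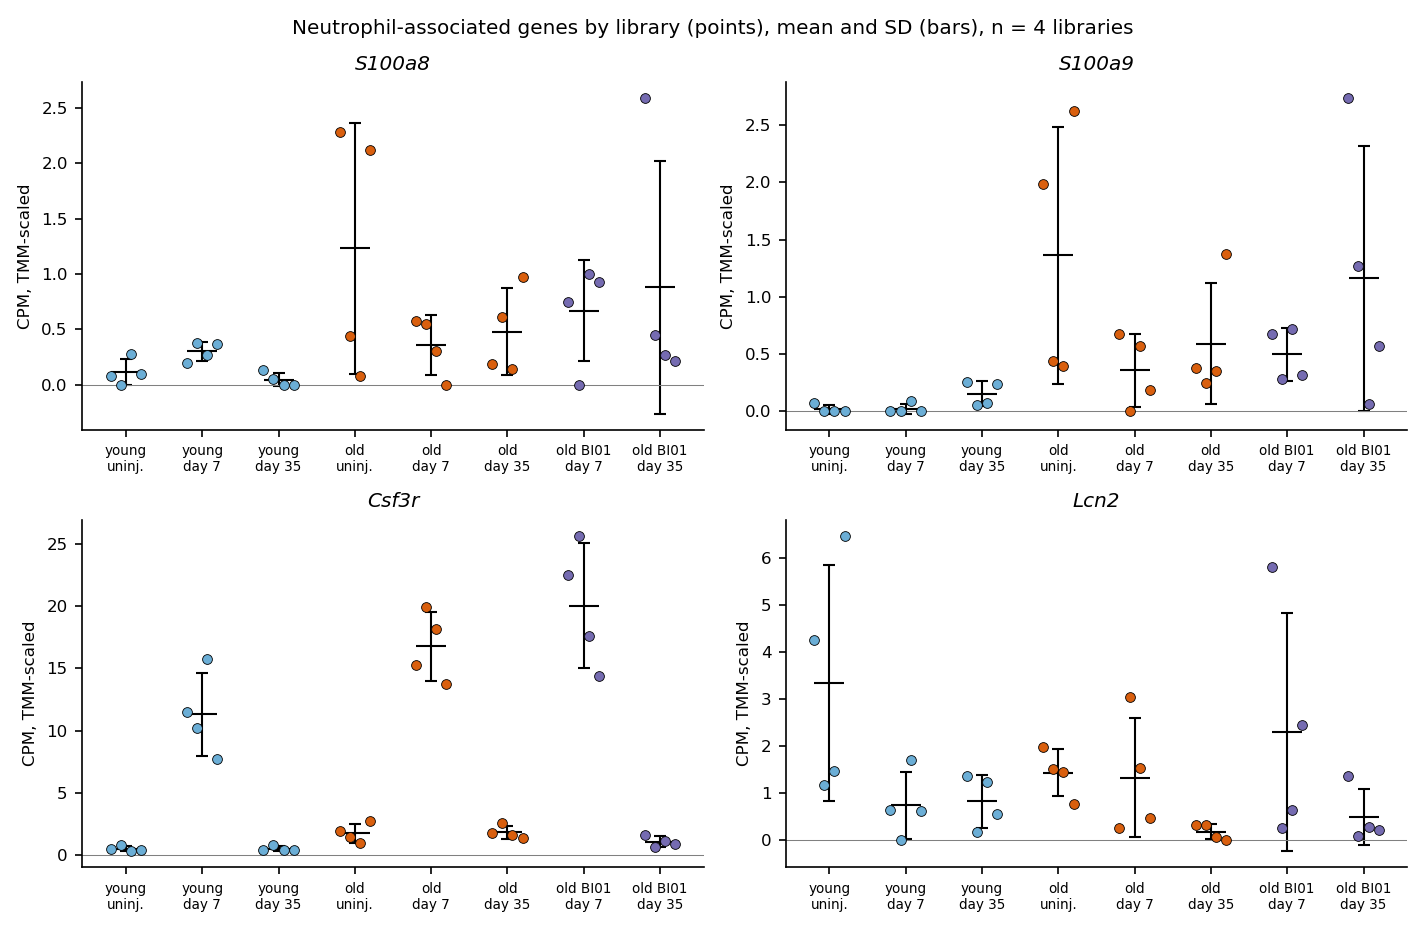
CPM of S100a8, S100a9, Csf3r and Lcn2 (y axes, linear, scale differs by panel) in the 8 groups (x axes). Points are libraries in column order, the wide bar is the mean and the whisker the SD (n = 4). Csf3r is at 7.71 CPM or more in every day 7 library and at 2.71 CPM or less elsewhere, and S100a8 and S100a9 are highest in single libraries of old muscle.

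S100a8 (ENSMUSG00000056054, chromosome 3, 90668978 to 90670035) and S100a9 (ENSMUSG00000056071, chromosome 3, 90692632 to 90695721) had their highest group means in old uninjured muscle, and neither was called higher at day 7. S100a9 had 1, 0, 0 and 0 counts in the young uninjured libraries and 26, 11, 5 and 58 counts in the old uninjured libraries, in column order. S100a8 had 1, 0, 3 and 1 counts in young and 30, 11, 1 and 47 counts in old uninjured muscle. The 4 old libraries lay above the 4 young ones for S100a9 but not for S100a8, and old libraries 6 and 9 held most of the counts of both genes. The ratio of old to young shares of counts was 62.3 for S100a9, with an exact 95% interval of 10.9 to 2487 that covers counting error only (edgeR adjusted p = 0.00504). S100a8 had 1.23 ± 1.14 CPM in old and 0.112 ± 0.117 CPM in young uninjured muscle (SD, n = 4), a log2 fold change of 3.40 that was not called (edgeR adjusted p = 0.0532). Over 15 alternatives its adjusted p ran from 0.0238 with DESeq2 to 0.66. It was called in 4 of them, among them the fit without old library 8 (0.0387).

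In young muscle S100a8 had its highest mean at day 7, 0.304 CPM, against 0.112 CPM uninjured and 0.0456 CPM at day 35. It had 5, 9, 6 and 6 counts at day 7 and 2, 1, 0 and 0 counts at day 35. The day 7 libraries overlapped the uninjured ones, with a log2 difference of 1.39 that was not called (edgeR adjusted p = 0.331). Every day 35 library lay below every day 7 library, with a ratio of 0.166 (exact 95% interval 0.0321 to 0.541, counting error only), which was not called (edgeR adjusted p = 0.106) except with library size alone (0.0381). S100a9 had 0, 0, 2 and 0 counts at day 7, where no fold is given, and 4, 1, 1 and 3 counts at day 35. In old vehicle muscle at day 7 S100a8 had 0.580, 0.548, 0.307 and 0 CPM and S100a9 had 0.677, 0, 0.570 and 0.188 CPM. Neither difference from old uninjured muscle was called, with log2 values of -1.74 for S100a8 (edgeR adjusted p = 0.117) and -1.90 for S100a9 (edgeR adjusted p = 0.0599), and the groups overlapped. S100a9 was called lower with limma voom (adjusted p = 0.0235), without uninjured library 7 (0.0416) or 8 (0.0431) and without day 7 library 7 (0.0411). Leaving out uninjured libraries 6 and 9 together moved its log2 value to -0.22. At day 7 the old vehicle to young ratio of S100a9 was 16.2 (exact 95% interval 4.19 to 139, counting error only), with overlap and no call (edgeR adjusted p = 0.0906).

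At day 35 the old libraries were uneven. S100a8 had 0.191, 0.614, 0.141 and 0.972 CPM with vehicle and 2.59, 0.448, 0.268 and 0.215 CPM with BI01. S100a9 had 0.381, 0.246, 0.352 and 1.38 CPM with vehicle and 2.73, 1.27, 0.067 and 0.574 CPM with BI01. BI01 library 6 was the highest of its group for both genes, as was vehicle library 9. None of the 7 pairs of neighbours in the order of group means was separated by more than the SDs, for S100a8 or for S100a9. Over the 8 group means the 2 genes had a Pearson r of 0.76 on log2 CPM, and their deviations from the group means over 32 libraries had an r of 0.54. Both values are descriptions of genes measured in the same libraries.

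Blood RNA was measured beside these genes through 4 haemoglobin genes, Hbb-bs, Hbb-bt, Hba-a1 and Hba-a2. Old uninjured libraries 6 and 9, with 56 and 105 counts of S100a8 and S100a9 together, had haemoglobin sums of 305 and 496 CPM, against 70.4 and 66.0 CPM in libraries 7 and 8 of that group. Young uninjured libraries had 57.0 to 129 CPM of haemoglobin and 0 to 3 counts of the alarmin pair. The highest haemoglobin sum, 1019 CPM in old vehicle day 35 library 7, came with 14 counts of the pair, and BI01 day 35 library 6 had 74 counts with 184 CPM. Ltf, Camp and Ngp, genes of neutrophil secondary granules, had 65 counts together in old uninjured library 6 and 0 to 4 in the other 3 libraries of that group. Without libraries 6 and 9, S100a9 had a log2 fold change of 3.93 for age with an edgeR adjusted p of 0.117, Csf3r 1.28 with 0.0691 and Il1b 5.93, a fitted value against 0 counts, with 0.0609. The part of blood in the age difference was not tested.

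**Figure D2:**
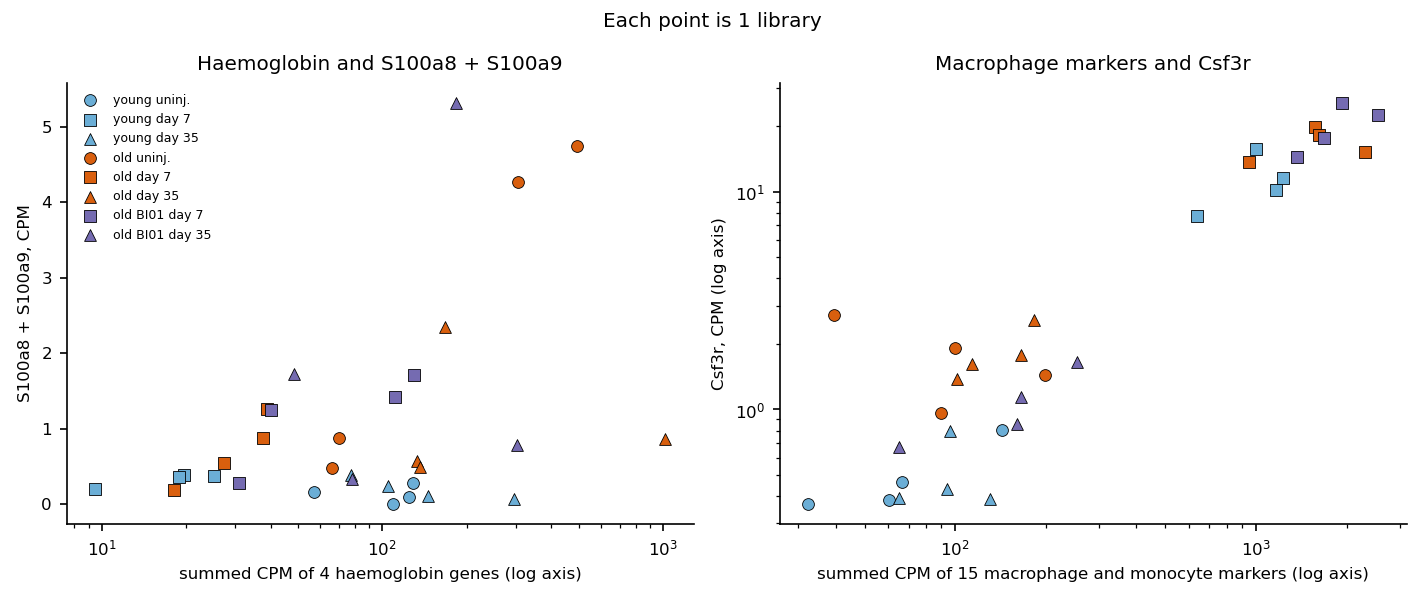
Left, S100a8 plus S100a9 in CPM (y axis) against the summed CPM of 4 haemoglobin genes (x axis, log). Right, Csf3r in CPM (y axis, log) against the summed CPM of 15 macrophage and monocyte markers (x axis, log). Each point is a library, colour gives age and treatment and shape gives the state. Old uninjured libraries 6 and 9 lie high in the left panel at 305 and 496 CPM of haemoglobin, and in the right panel all day 7 libraries lie at 634.9 CPM of macrophage markers or more.

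Lcn2 (ENSMUSG00000026822, chromosome 2, 32384633 to 32388252) encodes lipocalin 2, a secreted protein that binds bacterial iron carriers and is stored in neutrophil granules. Its highest group mean was in young uninjured muscle, where the libraries had 4.25, 1.16, 1.47 and 6.46 CPM. Young day 7 libraries had 0.632, 0, 1.71 and 0.612 CPM, and young day 35 libraries had 1.36, 0.159, 1.23 and 0.549 CPM. The day 7 and uninjured groups overlapped, but Lcn2 was called lower at day 7 (log2 fold change -2.17, SE 0.94, edgeR adjusted p = 0.0461). The call was lost without young uninjured library 1 (adjusted p = 0.0884) or 4 (0.157), without day 7 library 4 (0.0902), 5 (0.11) or 7 (0.076), and with library size alone (0.201). Keratinocyte markers, which could come with skin, summed to 69.2 CPM in young uninjured library 1 and 11.2 CPM in library 4, the 2 libraries with the most Lcn2, and their part in its level was not tested.

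Lcn2 levels in old muscle spread widely within groups. The old vehicle libraries had 1.98, 1.51, 1.44 and 0.769 CPM uninjured, 0.258, 3.03, 1.54 and 0.470 CPM at day 7 and 0.318, 0.307, 0.0703 and 0 CPM at day 35. BI01 libraries had 5.81, 0.251, 0.644 and 2.45 CPM at day 7 and 1.37, 0.0747, 0.268 and 0.215 CPM at day 35. In old vehicle muscle Lcn2 fell between day 7 and day 35 (log2 fold change -2.82, SE 1.09, edgeR adjusted p = 0.0278), with overlap between the groups. That call was lost without day 7 library 8 (adjusted p = 0.137), without day 35 library 8 (0.0739) or 9 (0.0755) and with limma voom (0.15). All 4 day 35 libraries lay below all 4 uninjured ones, and the log2 difference of -2.91 was not called in the fit of all groups (edgeR adjusted p = 0.134), whereas DESeq2 called it (0.0383).

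Mmp8 (ENSMUSG00000005800, chromosome 9, 7558456 to 7568485) encodes neutrophil collagenase, which cuts fibrillar collagen. Young libraries had 0, 1, 0 and 1 counts uninjured, 0, 18, 9 and 18 counts at day 7 and 0, 0, 3 and 0 counts at day 35. Library 4 at day 7 had no count and overlapped the uninjured group. The ratio of day 7 to uninjured shares was 11.7 (exact 95% interval 3.05 to 99.4, counting error only), and Mmp8 was called higher (edgeR adjusted p = 0.0189) and again lower at day 35 against day 7 (edgeR adjusted p = 0.0184). The first call was lost without young uninjured library 1 (adjusted p = 0.0594) or 3 (0.0538) and without day 7 library 7 (0.0622). The second was lost without day 7 library 7 (0.0587) and without day 35 library 1 (0.0584), 2 (0.0633) or 4 (0.055). With limma voom neither was called (0.205 and 0.106).

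In old vehicle muscle Mmp8 had 0.305, 0.438, 0.160 and 0.407 CPM uninjured, 2.06, 0.402, 0.439 and 0.423 CPM at day 7 and 0, 0.246, 0 and 0.324 CPM at day 35. A single day 7 library, number 7, stood above the rest with 64 counts. The day 7 difference was not called (log2 fold change 1.30, SE 0.93, edgeR adjusted p = 0.219). The fall from day 7 to day 35 was called (-2.54, SE 1.03, edgeR adjusted p = 0.0348) with no overlap, and was lost without day 7 library 7 (adjusted p = 0.235) and without day 35 library 6 (0.104) or 8 (0.102). BI01 libraries had 0.936, 0.529, 0.572 and 0.442 CPM at day 7 and 0.360, 0.224, 0 and 0.215 CPM at day 35, again with no overlap and no call (edgeR adjusted p = 0.168).

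Il1b (ENSMUSG00000027398, chromosome 2, 129364570 to 129371139) encodes interleukin 1 beta, made as a precursor that caspase 1 cuts. Its gene overlaps the antisense gene Il1bos, which had 38 counts in all against 333 for Il1b, and without known strand handling reads in the overlap cannot be assigned with certainty. Il1b had 0 counts in all 4 young uninjured and all 4 young day 35 libraries, where the floor of 3 counts over the group is 0.0661 and 0.0492 CPM. At day 7 the young libraries had 0, 10, 10 and 11 counts, and 1 library at 0 overlapped the uninjured group. As a share of the counts pooled over each group this was at least 5.36-fold higher than uninjured (edgeR adjusted p = 0.00518). By day 35 the pooled share was at least 7.19-fold lower than at day 7 (edgeR adjusted p = 0.00306). With limma voom neither was called (adjusted p = 0.105 and 0.0579).

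Old vehicle muscle had Il1b in every uninjured library, with 2, 15, 2 and 9 counts. This was at least 4.98-fold above young uninjured muscle by the mean CPM over the floor, and 5.82-fold by pooled shares of counts (edgeR adjusted p = 0.0299). With limma voom it was not called (adjusted p = 0.115). Leaving out young library 1 ended the call (adjusted p = 0.0827), as did leaving out young library 3 (0.0851) or old library 7 (0.0786). At day 7 the old vehicle libraries had 2.48, 1.53, 0.965 and 0.376 CPM of Il1b against 0.153, 0.597, 0.160 and 0.407 CPM uninjured. The groups overlapped and the log2 difference of 1.95 was just short of a call (SE 0.86, edgeR adjusted p = 0.052). It passed with DESeq2 (0.0319) and limma voom (0.0383), and without uninjured library 7 (0.0458) or day 7 library 10 (0.029). At day 35 the level had fallen to 0, 0.184, 0.352 and 0.081 CPM, below every day 7 library (log2 fold change -3.07, SE 0.96, edgeR adjusted p = 0.00783). With BI01 it was 0.337, 0.557, 1.40 and 1.37 CPM at day 7 and 0.647, 0.224, 0.067 and 0.0717 CPM at day 35.

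Tnf (ENSMUSG00000024401, chromosome 17, 35199381 to 35202007) encodes tumour necrosis factor. Young libraries had 0, 1, 0 and 1 counts uninjured and 21, 3, 0 and 0 counts at day 7, and 4, 0, 0 and 0 at day 35. The young rise rested on a single library and was not called (ratio 6.23, exact 95% interval 1.55 to 54.4 for counting error only, edgeR adjusted p = 0.21). Old vehicle libraries had 0, 0, 1 and 4 counts uninjured, 70, 29, 22 and 0 at day 7 and 5, 3, 11 and 0 at day 35. Tnf was called higher at day 7 in old vehicle muscle, 14.6-fold (log2 fold change 3.86, SE 1.34, edgeR adjusted p = 0.0131), in 3 of 4 libraries, with library 10 at 0. Without day 7 library 7 the adjusted p was 0.0515, and with limma voom it was 0.0515. BI01 libraries had 8, 12, 28 and 37 counts at day 7 and 0, 1, 9 and 8 at day 35.

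Il6 (ENSMUSG00000025746, chromosome 5, 30013114 to 30019981) encodes interleukin 6, a cytokine that signals through Il6ra and Il6st. It had the fewest counts of the 8 genes, 122 over the 32 libraries. Young libraries had 4, 0, 0 and 0 counts uninjured, 0, 5, 4 and 6 at day 7 and 1, 3, 0 and 1 at day 35. Old vehicle libraries had 0, 2, 0 and 5 counts uninjured, 22, 0, 12 and 16 at day 7 and 1, 0, 0 and 1 at day 35. The old day 7 difference from uninjured (log2 fold change 2.41, SE 1.16) was not called (edgeR adjusted p = 0.068), and it passed without uninjured library 9 (0.0393) or day 7 library 8 (0.0319). Il6 was called lower at day 35 than at day 7 in old vehicle muscle, with a ratio of 0.0699 (exact 95% interval 0.00824 to 0.266, counting error only, edgeR adjusted p = 0.0227). That call was lost without day 7 library 7 (adjusted p = 0.0501), without day 35 library 7 (0.0696) or 8 (0.0673) and with limma voom (0.145). BI01 libraries had 8, 18, 7 and 0 counts at day 7 and 3, 1, 2 and 0 at day 35. In the order of group means, none of the 7 pairs of neighbours was further apart than the SDs for Lcn2, Mmp8, Tnf or Il6. For Il1b 1 pair was, old vehicle day 35 against young day 35. All young libraries of that pair were at 0 counts, with an SD of 0, and the groups overlapped (edgeR adjusted p = 0.165).

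**Figure D3:**
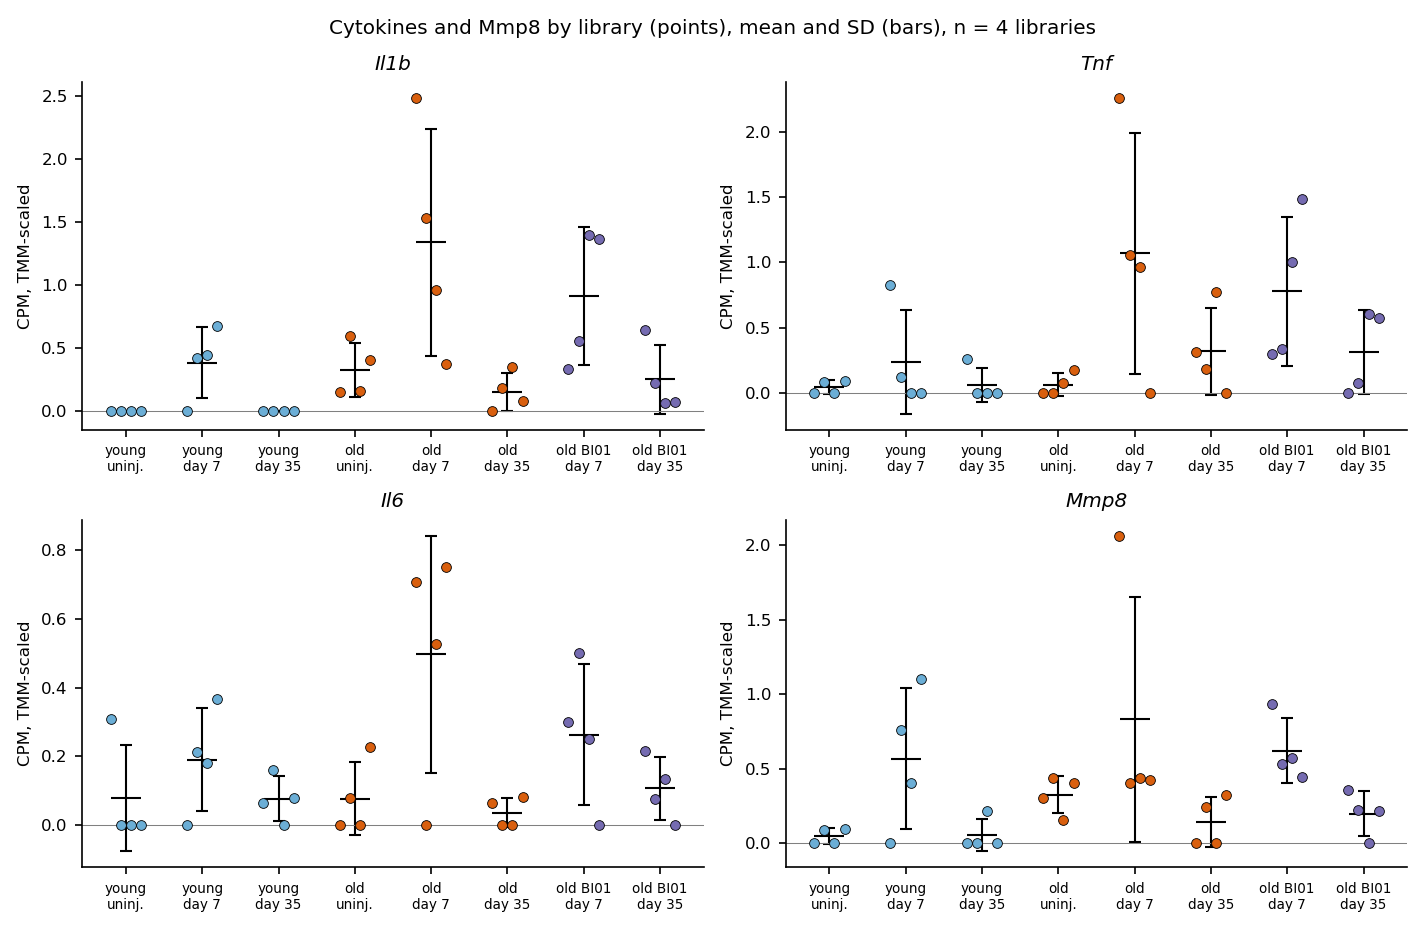
CPM of Il1b, Tnf, Il6 and Mmp8 (y axes, linear, scale differs by panel) in the 8 groups (x axes). Points are libraries in column order, the wide bar is the mean and the whisker the SD (n = 4). The highest points for Il1b (2.48 CPM), Tnf (2.26 CPM) and Mmp8 (2.06 CPM) all belong to old vehicle day 7 library 7.

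Counted over the 8 genes, age in uninjured muscle gave 3 called higher (S100a9, Csf3r and Il1b) and 0 lower, where 5.79% of the 17121 genes were called higher and 7.65% lower. The median log2 fold change was 2.27 over the 8 and 0.09 over all genes. The unadjusted edgeR p was under 0.05 for 5 of the 8, with S100a8 and Mmp8 beside the 3 called, and for 4740 of all genes. At day 7 in young muscle 3 were called higher (Csf3r, Il1b and Mmp8) and Lcn2 lower, where 33.3% of all genes were called higher and 27.5% lower. In old vehicle muscle 2 were called higher at day 7 (Csf3r and Tnf), and 34.4% of all genes were, with 29.8% lower. With library size alone in place of TMM the share of all calls that were higher was 78% in place of 43.1% for age in uninjured muscle, 87.3% in place of 54.7% for day 7 in young and 86% in place of 53.5% for day 7 in old vehicle muscle. Differences are relative to TMM scaling throughout. The day 7 shares of the 8 genes, 3 and 2 of 8, were thus close to the background in young muscle and no higher than it in old muscle.

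Between day 7 and day 35, 3 of the 8 fell in young muscle (Csf3r, Il1b and Mmp8) and 29.3% of all genes fell. In old vehicle muscle 5 of the 8 fell (Csf3r, Il1b, Lcn2, Il6 and Mmp8) and 31.4% of all genes did. With BI01 only Csf3r of the 8 was called lower, where 29.4% of all genes were. Lcn2 was just short of a call there (log2 fold change -2.23, edgeR adjusted p = 0.0541) and was called in 6 of 15 alternatives. Il1b was at -1.83 (edgeR adjusted p = 0.089), and 2 of the 8 were above 0 (S100a8 and S100a9). At day 35 against uninjured muscle edgeR called 0 of the 8 in young muscle, where 15.7% of all genes were called in either direction, and 0 in old vehicle muscle, where 5.64% were. In each of these 2 comparisons Lcn2 alone had an unadjusted p under 0.05. With a replicate block by column number, fitted to the 2 groups alone, edgeR called Lcn2 in young (adjusted p = 0.0325) and old vehicle muscle (0.0046). DESeq2 called 0 in young and 1 in old vehicle muscle, and limma voom 0 in both. Over all genes DESeq2 called 3333 in young and 1253 in old vehicle muscle, and limma voom 1839 and 705.

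At day 7 old vehicle muscle against young gave 0 called by edgeR, with 2.43% of all genes called. S100a9, Csf3r and Il1b had an unadjusted p under 0.05, as had 3234 of all genes. DESeq2 called 0 of the 8 and 825 genes in all. Limma voom called 2 of the 8 (Csf3r and Il1b) and 1251 genes in all. At day 35 Csf3r was the 1 gene called higher, where 1.72% of all genes were. S100a8 (ratio 9.36, exact 95% interval 2.88 to 48.2 for counting error only, no overlap, edgeR adjusted p = 0.213) and Il1b (at least 3.12-fold by pooled shares, edgeR adjusted p = 0.165) also had an unadjusted p under 0.05. DESeq2 called 1 of the 8 and 922 genes in all, and limma voom 0 of the 8 and 464 genes in all. The age difference in the day 7 response gave 0 of the 8 (7.7% of all genes), with Csf3r alone under an unadjusted p of 0.05. The age difference in the day 35 response gave 0 of the 8 (0% of all genes), with S100a9 alone under that p. In both differences DESeq2 and limma voom called 0 of the 8. Over all genes DESeq2 called 2013 and limma voom 1204 for the day 7 response, and 14 and 1 for the day 35 response.

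**Figure D4:**
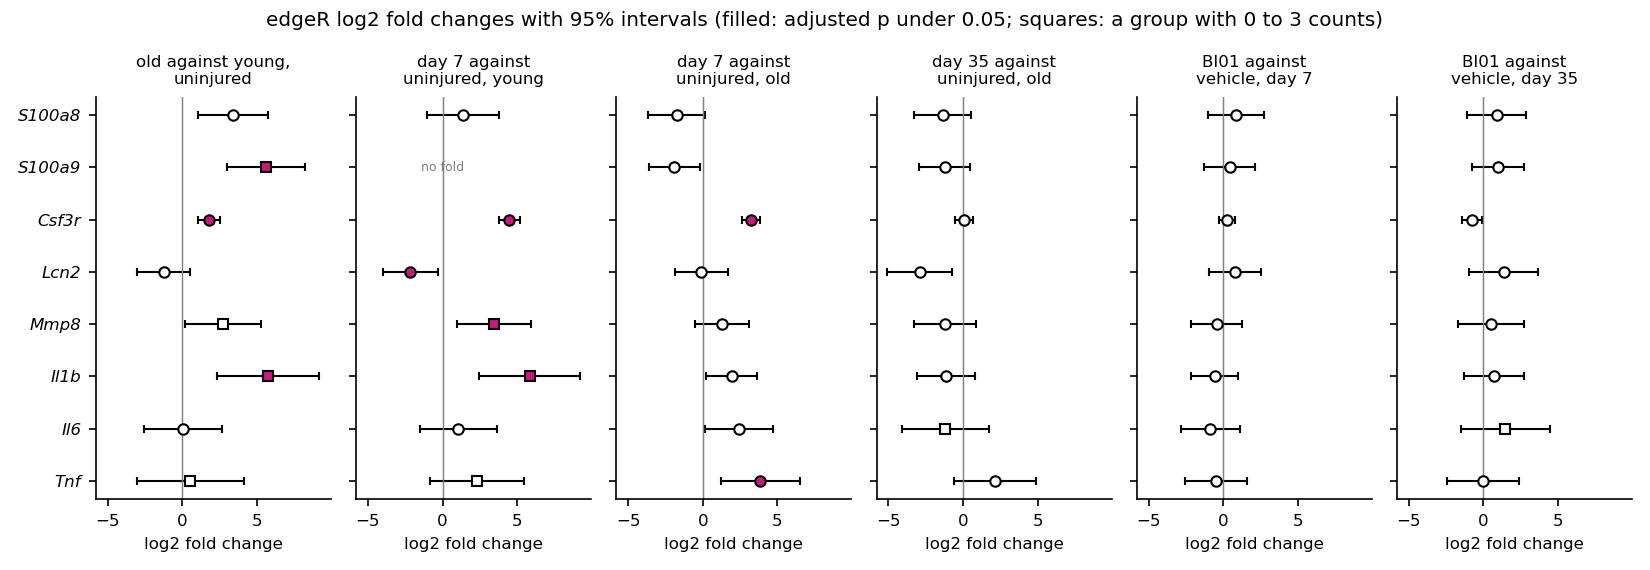
edgeR log2 fold changes (x axes) of the 8 genes (rows) with 95% intervals in 6 comparisons. Filled symbols have an adjusted p under 0.05, squares mark fitted values where a group had 0 to 3 counts and are no bounds, and no fold is drawn where both groups had 3 counts or fewer. Csf3r has the narrowest intervals, and no symbol is filled in the 2 BI01 panels.

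BI01 against vehicle in old muscle addressed whether the compound altered these genes after injury. At day 7 edgeR called 0 of the 8 and 0% of all genes, and adjusted p-values of the 8 ran from 0.868 to 0.95. Csf3r differed by 0.26 on the log2 scale with a 95% interval from -0.26 to 0.77. S100a8 (0.85), Lcn2 (0.78) and S100a9 (0.45) were above 0, while Il1b (-0.56), Il6 (-0.88), Tnf (-0.47) and Mmp8 (-0.43) were below 0. The intervals of these 4 reached beyond 1 in both directions. BI01 and vehicle libraries overlapped for each of the 8 genes. The share over all genes was not counted, so the overlap describes the 8 only. No gene of the 8 had an unadjusted p under 0.05, and over all genes 1126 did, with 1 gene called by DESeq2 and 0 by limma voom.

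At day 35 BI01 again gave 0 of the 8 and 0% of all genes, with all 8 adjusted p-values at 1. Csf3r was the one gene with an unadjusted p under 0.05, at -0.77 on the log2 scale (95% interval -1.42 to -0.12). Its libraries overlapped, 0.672 to 1.65 CPM with BI01 and 1.38 to 2.58 CPM with vehicle. The BI01 effect on Csf3r at day 35 minus that at day 7 was -1.03 (95% interval -1.85 to -0.20, edgeR adjusted p = 0.921). None of the 8 was called in that difference of differences, nor any other gene (0%), and DESeq2 and limma voom called 0 of the 8 in both. Over all genes 530 had an unadjusted p under 0.05 at day 35, and DESeq2 called 12 and limma voom 0. These intervals leave room for changes of more than 1 on the log2 scale in every gene except Csf3r at day 7.

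Other neutrophil genes were measured from a list of 24. Of these, 16 did not pass the filter, among them Ly6g, Mpo, Elane, Ltf, Camp and Ngp. Ly6g, the surface marker used to define mouse neutrophils, had 1 count in old vehicle muscle at day 35 and 0 in the other 7 groups. Mpo, which encodes the peroxidase of primary granules, had 3 counts in young and 3 in old vehicle muscle at day 7. Among the 8 that passed were Mmp9, which encodes the protease gelatinase B, and the formyl peptide receptor genes Fpr1 and Fpr2. Against a background of 33.3% of all genes called higher and 27.5% lower at day 7 in young muscle, and 34.4% and 29.8% in old vehicle muscle, 6 of these rose in young muscle and 8 in old, with Clec4d, a C-type lectin receptor, at 5.21 and 4.44 on the log2 scale (edgeR adjusted p = 0.000219 and 9.8e-05). Since genes can pass that filter through the group in which they are high, these counts describe the 8 only. The list summed to 2.02 to 41.1 CPM in young and 13.8 to 83.3 CPM in old vehicle libraries at day 7, against 0.356 to 1.62 and 0.320 to 9.23 CPM uninjured.

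Macrophage and monocyte markers moved with Csf3r. Of 15 tested, 12 rose at day 7 in young (33.3% of all genes) and 13 in old vehicle muscle (34.4%), with none lower, and Fcgr1, an Fc receptor gene of these cells, had log2 fold changes of 4.51 and 5.39. The 15 summed to 32.5 to 143 CPM in young and 39.5 to 199 CPM in old uninjured libraries, to 634.9 to 1233 and 944.8 to 2308 CPM at day 7, and to 1372 to 2554 CPM with BI01. None of the 15 was at 0 counts in any group. T and NK cell markers rose in 11 of 12 in both ages, and mast cell markers in 6 of 6 tested (8 listed), against the same background. Fibroblast and progenitor markers rose in 6 of 9 in young and 7 of 9 in old vehicle muscle, with 0 lower. In young muscle these summed to 260.2 to 494 CPM uninjured and to 6478 to 9722 CPM at day 7. Since genes can pass the filter through the group in which they are high, the counts of these lists describe the tested genes only. The part of all these cell types in the Csf3r rise was not tested. In the age comparison of uninjured muscle 0 of the 15 macrophage markers and 0 of the 8 tested neutrophil genes were called. Over all genes 5.79% were called higher and 7.65% lower, and with so few genes 0 calls are not far from these shares. The neutrophil genes had median log2 fold changes of 1.23 before injury and 1.73 at day 35, beside 0.09 and 0.01 over all genes. The macrophage markers had medians of 0.25 and 0.58. T and NK cell markers had 2.31 before injury, with 1 of 12 called higher, and 0.51 at day 35. Erythroid and platelet markers had 1.169 and 1.085, with 0 of 8 tested called. Mast cell markers had 0.17 and 0.84, and adipocyte markers -1.66 and -0.79. At day 35 again 0 of the 8 neutrophil genes were called, where 1.72% of all genes were called higher.

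Ligands and receptors around the 8 genes are counted at day 7 against the same shares of all genes, 33.3% higher and 27.5% lower in young and 34.4% and 29.8% in old vehicle muscle. Csf3, which encodes G-CSF, the ligand of Csf3r, had 0 to 3 counts in each group and did not pass the filter. Of 9 tested genes of neutrophil attraction, 5 rose at day 7 in young and 6 in old vehicle muscle, led by C5ar1, the complement C5a receptor (3.51 and 5.66 on the log2 scale). Of 11 tested calprotectin receptors and S100 relatives, 8 rose and 2 fell at day 7 in each age. The receptor gene Tlr4 rose by 1.14 in young and 2.03 in old, its co-receptor Cd14 by 3.37 and 4.55, and S100a11 by 3.60 and 3.56 on the log2 scale, while the S100a8 difference was not called in either age.

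The IL-1 list rose in 14 of 19 genes at day 7 in young (33.3% of all genes) and 15 of 19 in old vehicle muscle (34.4%), with none lower. Il1rn, the receptor antagonist that blocks IL-1, had 0.0667 CPM in young uninjured and 3.70 CPM in young day 7 muscle, and in old vehicle muscle it rose from 0.314 to 5.94 CPM (log2 fold change 4.16, SE 0.77, edgeR adjusted p = 2.43e-05). The signalling receptor gene Il1r1 was lower in old than in young uninjured muscle (-2.05, edgeR adjusted p = 0.00262), the opposite direction to Il1b. It rose at day 7 in old vehicle muscle (2.52, edgeR adjusted p = 1.56e-05), and in young muscle its difference was -0.36 (edgeR adjusted p = 0.458).

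For IL-6, 7 of 15 tested genes rose and 4 fell at day 7 in young muscle, and 9 rose and 3 fell in old vehicle muscle. Over all genes 33.3% rose and 27.5% fell in young, and 34.4% and 29.8% in old. Socs3, a feedback inhibitor induced by this pathway, rose by 2.22 in young and 2.88 in old on the log2 scale. In uninjured muscle 0 of the 15 were called higher in old (5.79% of all genes) and 5 lower (7.65%), among them Il6ra (-1.89, edgeR adjusted p = 0.0018) and the shared receptor subunit Il6st (-0.93, edgeR adjusted p = 0.0012), while Il6 itself was not called. Of 23 TNF genes, 12 rose and 6 fell at day 7 in young, and 13 rose and 6 fell in old vehicle muscle, so the shares that fell were close to the background. Adam17, whose protease releases TNF from the membrane, rose by 1.99 and 1.58, and the receptor gene Tnfrsf1b by 3.24 and 3.57 on the log2 scale. In uninjured muscle 3 TNF genes were higher in old and 2 lower, and Tnfaip3, an inhibitor of NF-kB signalling, had the smallest p (2.01, SE 0.35, edgeR adjusted p = 0.000342).

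Around Mmp8, 6 of 8 tested collagenase and inhibitor genes rose and 2 fell at day 7 in each age. Mmp14, a membrane-bound collagenase, rose by 4.18 in young and 4.46 in old, and the inhibitor gene Timp1 by 4.45 in both, while the inhibitor Timp4 fell (-3.31 and -5.00 on the log2 scale). Of 6 tested Lcn2 receptors and iron genes, 4 rose and 2 fell in young and 3 rose and 2 fell in old vehicle muscle at day 7. Over all genes 33.3% rose and 27.5% fell in young, and 34.4% and 29.8% in old vehicle muscle. The shares that fell in both lists were close to these. The Lcn2 receptor gene Slc22a17 rose by 3.92 in young and 2.31 in old. It was also higher in old uninjured muscle (1.85, edgeR adjusted p = 0.0109), where Lcn2 was not called (-1.23, edgeR adjusted p = 0.4).

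Among 12151 protein-coding genes averaging 1 CPM or more, the pattern most like Csf3r over the 8 group means of log2 CPM was that of Parp11 (Pearson r 0.997), then Cldn2 (0.996) and Cyb5r3 (0.996). For Il1b it was Ifi208 (0.992), for Mmp8 Tmem2 (0.984) and for Il6 Adamts6 (0.983). The closest genes to Tnf (Rdh5, 0.960), S100a9 (Lsm1, 0.957), S100a8 (Med19, 0.950) and Lcn2 (Vegfd, 0.948) were less alike. With a prior count of 0.5 in place of 2 in the log2 CPM, 4 of these 8 leading genes were again first, while Med19 and Vegfd ranked 2, Ifi208 3 and Tmem2 5, and Cldn2 ranked 17 for Csf3r. Within the set, Il1b and Mmp8 had the highest r over group means, 0.97, and S100a9 and Lcn2 the lowest, -0.25. These are descriptions over 8 points that share libraries and scaling.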

How the data were processed

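RNA of 32 muscle libraries in 8 groups of 4 was sequenced as mRNA. The deposited table holds whole-number counts per gene, with gene length and coordinates. The submitters' processing notes name HISAT2 and mm10. The aligner version, counting tool, annotation release and strand setting were not given in the sources used here. Gene length is the authors' own value and served only for levels per kb.

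The 8 genes and 17 gene lists (8 pathway and 9 marker lists) were chosen with earlier results of these data known. Counts were scaled by TMM and filtered with filterByExpr, and edgeR 4.0.16 (R 4.3.3) fitted a robust quasi-likelihood model with 1 mean per group to all libraries. Contrasts gave 12 comparisons of 2 groups and 3 differences of differences, with Benjamini-Hochberg adjustment over 17121 genes and a threshold of 0.05. Depth was 14129350 to 30439358 counts per library. A fold against 0 counts used a floor of 3 counts over the group, and a ratio with an exact 95% interval was given for 1 to 3 counts. Named beside the 8 genes were at most 3 called genes with the smallest p per list and comparison, plus receptors, inhibitors and partners of the 8. Genes of like pattern were the 3 with the highest r, predicted genes left out. Alternatives were library size alone, RLE factors, other filters, DESeq2 1.42.0, limma voom (limma 3.58.1), the 2 groups alone, and each library left out. No pair of libraries in a group agreed within sampling noise.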

Additional observations from a re-analysis of the deposited data

Results flagged for a closer look

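Of 64 combinations of gene and group, 52 had a library with more than 3 counts and were tested, and 6 libraries lay far from the other 3 of their group. For continuous values with a normal spread chance flags about 1 in 20 groups. That rate does not hold where libraries tie at 0 counts, as for the gaps of 1 below. The value given is the gap to the nearest library divided by the range of the group, both on log2 CPM with a prior count of 2. On CPM itself 8 libraries lay as far apart, and 4 of these were among the 6. S100a8 in BI01 day 7 library 2 was at 0 counts, with a gap of 0.89 below the others at 0.749 to 1.00 CPM. Csf3r in young day 35 library 2 was at 0.797 CPM (gap 0.854) above 0.387 to 0.433 CPM. Il6 in young uninjured library 1 had 4 counts and the others 0 (gap 1), and Il6 in old vehicle day 7 library 8 had 0 counts (gap 0.854) below 0.526 to 0.752 CPM. Tnf in young day 35 library 1 had 4 counts and the others 0 (gap 1). Mmp8 in old vehicle day 7 library 7 was at 2.06 CPM with 64 counts (gap 0.952) above 0.402 to 0.439 CPM. That library also had the lowest sum of muscle fibre markers, 11190 CPM, and the highest sum of the neutrophil list, 83.3 CPM, and their part in the Mmp8 value was not tested.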

How the results depend on the processing

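Of the 35 pairs of gene and comparison called under any setting, none changed direction under the alternatives run, and of the other 85, called under no setting, 37 changed sign in at least 1. Csf3r was called in the day 7 and day 35 against day 7 comparisons under all of them. The number of the 8 genes called moved as follows. Where fits of the 2 groups alone called fewer, the genes lost had not passed the filter there: of 19 calls of the reported fit, 10 were of genes left untested and 0 were tested and not called. For the other moves the cause was not tested. For age in uninjured muscle it was 3, with limma voom 1, with the 2 groups alone 1 and without old libraries 6 and 9 together 0 (chosen after seeing the data). Over all genes limma voom called 1635 there, against 2302 in the reported fit. For day 7 in young muscle 4 became 2 with limma voom and 2 with the groups alone, and for day 7 in old vehicle muscle 2 became 5 with library size alone and 1 with the groups alone. For day 35 in old vehicle muscle 0 became 1 with DESeq2 and 1 with the groups alone. Over all genes DESeq2 called 1253 and the groups alone 2600 there, against 966. For age at day 7 limma voom called 2 and for age at day 35 it called 0. Over all genes limma voom called 1251 and 464, against 416 and 601. Between day 7 and day 35, young muscle had 1 with limma voom and 1 with the groups alone. Old vehicle muscle had 3 with no filter, 3 with limma voom and 2 with the groups alone. BI01 had 4 with library size alone, 2 with RLE factors and 2 with DESeq2. Over all genes library size alone called 11521 with BI01, of which 11.8% were higher, against 9511 and 47.1% in the reported fit. Leaving out each library in turn gave 2 to 4 for age in uninjured muscle, 2 to 4 for day 7 in young and 2 to 4 in old vehicle muscle, 2 to 4, 2 to 5 and 1 to 3 between day 7 and day 35 in young, old vehicle and BI01 muscle, and 0 to 1 for the age difference at day 7.

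Column numbers were compared in 3 of the pairs of groups that share them. Same-numbered libraries had correlations of their deviations from -0.032 to 0.161 in young and 0.009 to 0.109 in old. Between BI01 and vehicle they ran from -0.102 to 0.034. The reported fit did not take the numbers as pairs, but correlations this weak cannot show that the libraries were unpaired. A library correlated best with its own number in 3, 2 and 1 of 4. With a replicate block added to the 2 groups alone, 1 of the 8 genes was called at day 35 in young muscle and 1 in old vehicle muscle (Lcn2 in each), and 0 for BI01 at day 35.

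Library size alone, in place of TMM, shifted the median over all genes for age in uninjured muscle (0.09 became 0.29 on the log2 scale), for day 7 in young (0.17 became 1.05) and old vehicle muscle (0.14 became 1.15), and for day 35 against day 7 in old vehicle muscle (-0.12 became -1.08). The share of calls that were higher went from 46.7% to 12.9% in the last of these. For age at day 7 it went from 10.3% to 85.7%, and for age at day 35 it was 49.1% and 58.5%. Counts of all genes called that moved by over 1.5 times ran over the alternatives from 1013 to 2913 for age in uninjured muscle (2302 in the reported fit), 1309 to 3333 for day 35 in young (2691), 306 to 2600 for day 35 in old vehicle muscle (966), 0 to 1251 for age at day 7 (416), 330 to 1950 for age at day 35 (601), 173 to 2152 for the age difference at day 7 (1319), 0 to 40 for that at day 35 (0), 0 to 54 and 0 to 12 for BI01 at day 7 and day 35 (0 and 0), and 0 to 2 for their difference (0). The exact permutation test planned for genes under the filter was not run, since all 8 passed. Few counts per library limit the precision for 7 of the 8 genes.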
